A study of Mus musculus with 6 samples.

Results

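The 10 genes described here serve the phosphocreatine and adenylate stores of muscle and its oxygen store, and they were taken by name from a fixed list. They are the creatine kinases Ckm, Ckb, Ckmt1 and Ckmt2, the creatine transporter Slc6a8, the adenylate kinase Ak1, the AMP deaminases Ampd1, Ampd2 and Ampd3, and myoglobin (Mb). These are 10 of 25269 genes with a count in the series, where a transcript not paired with a gene is an entry of its own. Of the 10 members, 9 could be tested, since Ckmt1 had almost no counts.

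RNA was sequenced from C2C12 cells, a mouse myoblast line that leaves the cell cycle and fuses in low serum. The 6 poly(A) libraries form 3 groups of 2, namely myotubes and reserve cells, which the series dates to 7 days in low horse serum, and undifferentiated myoblasts. The methods describe a shorter time where they treat culture. Myotubes were lifted off with dilute trypsin, so the reserve cells are the mononucleated cells left by that step, with no sort on a marker, and the labels give no genetic change or drug for any group. All groups come from a single line, and the labels do not say whether the libraries of a group came from separate cultures, so p-values measure the spread between these libraries.

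Creatine kinases move phosphate between ATP and creatine, so that phosphocreatine can refill ATP within moments of a contraction. Ckm and Ckb encode the cytosolic muscle and brain forms, whose subunits pair as dimers, and Ckmt2 and Ckmt1 encode the sarcomeric and the ubiquitous mitochondrial forms. Adenylate kinase turns a pair of ADP molecules into ATP and AMP, and AMP deaminase removes the AMP as IMP, which adenylosuccinate synthetase and lyase can return to AMP. Myoglobin, a heme protein, binds oxygen in the cytosol of striated muscle.

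The stretches around the start sites of the creatine kinase genes with counts and of myoglobin are shown because these genes rose together but by very different amounts. RefSeq windows of 300 bases (GRCm38.p6, 250 bases before to 50 after a start site) were matched for 8 of the 10 members, and Slc6a8 and Ampd1 were not matched. Capitals mark the E-box CANNTG, bound by myogenic bHLH factors, a MEF2-like motif (CTA and TAG with 4 bases of any kind between them) and the TATA box TATAAA, each searched on both strands.
Ckm, chr7:19410844-19411143, plus strand: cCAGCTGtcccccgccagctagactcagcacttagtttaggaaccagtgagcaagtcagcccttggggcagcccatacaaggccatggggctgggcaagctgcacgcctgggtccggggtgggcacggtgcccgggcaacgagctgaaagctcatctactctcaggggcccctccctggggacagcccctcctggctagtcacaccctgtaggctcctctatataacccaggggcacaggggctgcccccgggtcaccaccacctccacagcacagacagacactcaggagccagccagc
Mb, chr15:77022738-77023037, minus strand: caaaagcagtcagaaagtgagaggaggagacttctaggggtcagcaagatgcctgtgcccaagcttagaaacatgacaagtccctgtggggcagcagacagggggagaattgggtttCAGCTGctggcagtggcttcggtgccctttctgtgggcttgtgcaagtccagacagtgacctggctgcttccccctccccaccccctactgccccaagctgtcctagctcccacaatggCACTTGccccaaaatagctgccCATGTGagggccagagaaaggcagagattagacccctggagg
Ckmt2, chr13:91876836-91877135, minus strand: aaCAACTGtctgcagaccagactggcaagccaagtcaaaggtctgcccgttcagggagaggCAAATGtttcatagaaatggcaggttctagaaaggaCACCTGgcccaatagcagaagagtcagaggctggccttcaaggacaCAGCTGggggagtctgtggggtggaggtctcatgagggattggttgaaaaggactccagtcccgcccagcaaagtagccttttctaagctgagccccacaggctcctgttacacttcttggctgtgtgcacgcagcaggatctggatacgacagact
Ckb, chr12:111672289-111672588, minus strand: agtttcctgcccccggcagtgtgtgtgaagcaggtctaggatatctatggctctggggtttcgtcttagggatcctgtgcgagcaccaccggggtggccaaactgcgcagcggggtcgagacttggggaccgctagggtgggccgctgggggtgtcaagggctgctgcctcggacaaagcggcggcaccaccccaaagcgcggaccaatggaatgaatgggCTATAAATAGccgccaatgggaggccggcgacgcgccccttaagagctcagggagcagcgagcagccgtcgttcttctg
The Ckmt2 window held 4 E-boxes, which began 248, 189, 153 and 107 bases before the start site. The Mb window, at the start of the transcript with most Mb counts, held 3, at 133 and 14 bases before and 8 bases after the start. The Ckm window held 1, CAGCTG, at its far edge 249 bases before the start. This start site is at 19411094, whereas the transcript with most Ckm counts starts upstream of it, at 19411025, so the E-box is nearer to that start. The Ckb window held no E-box. It held a MEF2-like match 29 bases before the start, and the TATA box lies inside that match. Of all 32841 windows of this length, 72.3% held an E-box, 3.69% a MEF2-like match and 13.6% a TATA box, so an E-box alone is a common feature. These are matches of letters and no test of binding.

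Estimated counts totalled 15658875 to 20055078 per library. Levels are given as CPM, in which counts are scaled to library size with factors by the trimmed mean of M values (TMM). A difference was called at an adjusted p under 0.05 from edgeR's quasi-likelihood test, fitted to 15454 genes in all 6 libraries, with Benjamini-Hochberg adjustment. The summed level of 6 muscle fibre markers was 22880 and 23090 in myotubes, 6703 and 7335 in reserve cells, and 329.9 and 330.3 CPM in myoblasts. That of 4 cycling markers was 121.6 and 124.4 in myotubes, 622.2 and 636.9 in reserve cells, and 1517 and 1539 CPM in myoblasts. The reserve cell libraries thus carried fibre transcripts at a level between the other groups. The 4 adipocyte markers were at 0 in every library, and summed endothelial, osteochondral, leukocyte and erythroid markers stayed under 4 CPM. Of 4 markers of quiescence and reserve cells, the sum was 75.4 and 74.6 in myotubes, 435.1 and 445.6 in reserve cells, and 598.3 and 589.8 CPM in myoblasts. Notch3, the most abundant of them, was at 341.9 and 345.2 in reserve cells, against 314.8 and 326.2 CPM in myoblasts. The others were lower in reserve cells than in myoblasts. Id3 was at 25.3 and 28.8 in reserve cells, against 188.1 and 169.2 CPM in myoblasts. Pax7 was at 61.3 and 65.5, against 72.9 and 68.3 CPM, and Hey1 at 6.61 and 6.11, against 22.5 and 26.1 CPM. Neural markers summed to 150 and 154.7 CPM in myoblasts, most of it Nefl, and to at most 10.3 CPM elsewhere.

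Of the 9 members tested, 7 were higher and 2 were lower in myotubes than in myoblasts, in a comparison where 65.3% of all genes were called, 32.7% in each direction. The myotube and myoblast libraries did not overlap for any of the 9, which was also the case for 83% of all genes. A call alone therefore says little, and the sizes carry the description. The median log2 fold change was 2.20 over the members and 0.00 over all genes. With library totals in place of TMM factors, the median of all genes moved to −0.27, and 36.6% of the called genes were higher, against 50% with TMM.

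Reserve cells also differed from myoblasts at 7 members upward and 2 downward, where 46.2% of all genes were called, 24.4% higher and 21.8% lower. The 9 members did not overlap between these groups either, which held for 74.8% of all genes. The median log2 fold change was 0.87 over the members and 0.01 over all genes. Between myotubes and reserve cells, 6 members were higher in myotubes, 2 were lower and 1 was not called, where 55.7% of all genes were called, 27.2% higher and 28.5% lower. Of the 9, 8 did not overlap, and Ampd2 did, where 78.3% of all genes did not overlap. The median of the members was 1.59, against −0.01 over all genes. Library totals moved the median of all genes to −0.21 in that comparison and the share of calls that were higher to 34.1%, against 48.9% with TMM. The comparisons share libraries and are not independent of each other.

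**Figure D1:**
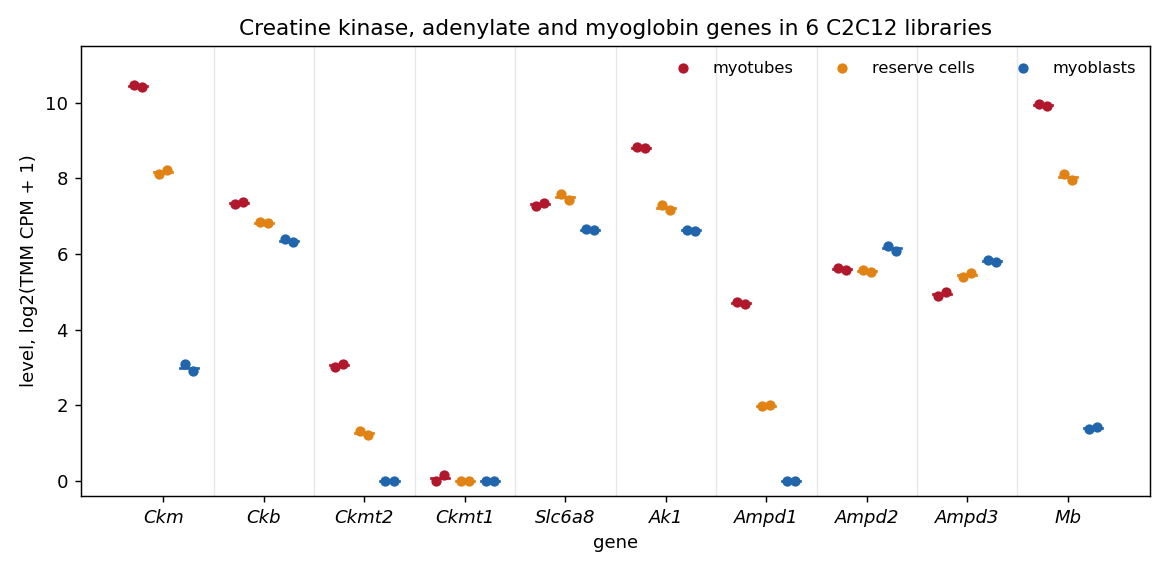
Level of each gene as log2(TMM CPM + 1) in the 6 libraries, with a point per library and a bar at the mean of 2 libraries, for myotubes, reserve cells and myoblasts from left to right. Ckm and Mb span the widest range, Ampd2 and Ampd3 are highest in myoblasts, and Ckmt1 stays near 0 everywhere.

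Ckm, the gene of the muscle creatine kinase, was high in myotubes, intermediate in reserve cells and low in myoblasts. It lies on the plus strand of chromosome 7, from 19404776 to 19422841 (mm10, as are all gene positions here). Its level was 1417 and 1367 in myotubes, 276.9 and 296.4 in reserve cells, and 7.53 and 6.50 CPM in myoblasts. The 3 groups did not overlap. Ckm was 199-fold higher in myotubes than in myoblasts, or 7.64 on the log2 scale (SE 0.0762, adjusted p = 4.8e-11 from edgeR). It was 41.0-fold higher in reserve cells than in myoblasts (log2 fold change 5.36, adjusted p = 5.51e-10) and 4.86-fold higher in myotubes than in reserve cells (log2 fold change 2.28, adjusted p = 2.05e-08). In a bulk sample, a lower level from fewer cells that express a gene cannot be told apart from less RNA in each cell. The level of Ckm in reserve cells was 20.6% of that in myotubes, while the 6 fibre markers were at 20.4% (Tnnt3) to 44.9% (Myog). The part that fibre transcripts in the reserve cell libraries play in this level was not tested.

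Ckb, the brain-type cytosolic creatine kinase, was already well expressed in myoblasts and changed little beside Ckm. It lies on chromosome 12, from 111669361 to 111672338 on the minus strand. Its level was 160.2 and 166.3 in myotubes, 113.2 and 111.7 in reserve cells, and 82.6 and 78.7 CPM in myoblasts. The order of the groups was the same as for Ckm, with no overlap. The log2 fold change was 1.02 for myotubes over myoblasts (SE 0.0592, adjusted p = 1.03e-06), 0.48 for reserve cells over myoblasts (adjusted p = 0.000249) and 0.54 for myotubes over reserve cells (adjusted p = 8.46e-05). Ckb therefore rose about 2.02-fold in myotubes.

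Ckmt2, which encodes the sarcomeric mitochondrial creatine kinase, was detected in differentiated cultures only, at a low level. It lies on chromosome 13, from 91853387 to 91876885 on the minus strand. It had 100 and 130 counts in myotubes, 30 and 26 in reserve cells, and 0 in both myoblast libraries. This was 7.11 and 7.56 CPM in myotubes, against 1.51 and 1.35 in reserve cells. A count of 0 allows up to 3 counts over the myoblast group, or 0.0773 CPM, which covers counting error only. Against that limit Ckmt2 was at least 95.2-fold higher in myotubes and at least 18.5-fold higher in reserve cells. The edgeR tests, which are of no change and not of that limit, gave adjusted p = 9.43e-06 and 0.000202. Ckmt2 was 5.11-fold higher in myotubes than in reserve cells, or 2.35 on the log2 scale (SE 0.349, adjusted p = 0.000897). In the fit of transcripts its only model with counts missed the threshold there (adjusted p = 0.0658). Ckmt1, the ubiquitous mitochondrial form on chromosome 2, had 0 and 2 counts in myotubes and 0 in the other 4 libraries, and was not detectable at this depth.

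Per kilobase of transcript, where genes can be compared, the creatine kinase pool differed in size and make-up. The summed level of the 4 genes was 630.5 and 616.7 CPM per kilobase in myotubes, 178.9 and 184.9 in reserve cells, and 58.9 and 55.9 in myoblasts. Ckm held 82.0% and 80.8% of it in myotubes, 56.4% and 58.5% in reserve cells, and 4.66% and 4.25% in myoblasts. Ckb held 17.3% and 18.3% in myotubes, 43.0% and 41.1% in reserve cells, and 95.3% and 95.8% in myoblasts. Ckmt2 stayed under 1% in every library, with 0.759% and 0.825% in myotubes as its highest share. Reserve cells were thus the group in which Ckm and Ckb came closest to equal parts, and no test was run on the shares.

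The length used for Ckm bears on these sums and shares. The sums were computed only with the length of each gene's most abundant transcript. Nearly all Ckm counts, 98.9% to 100% per library, were assigned to Ckm-203, a model of 2742 bases, whereas Ckm-201 has 1235 bases. With the coding length, an alternative chosen after seeing the data, the Ckm share was 89.1% ± 0.517 in the myotube libraries, 71.6% ± 1.18 in the reserve cell libraries and 7.99% ± 0.509 in the myoblast libraries (SD, n = 2 each). The order of the groups was the same. The longest stretch shared letter for letter by the main transcripts of Ckm and Ckb is 20 bases, and by those of Ckmt1 and Ckmt2 39 bases, both shorter than a read of 150 bases.

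**Figure D2:**
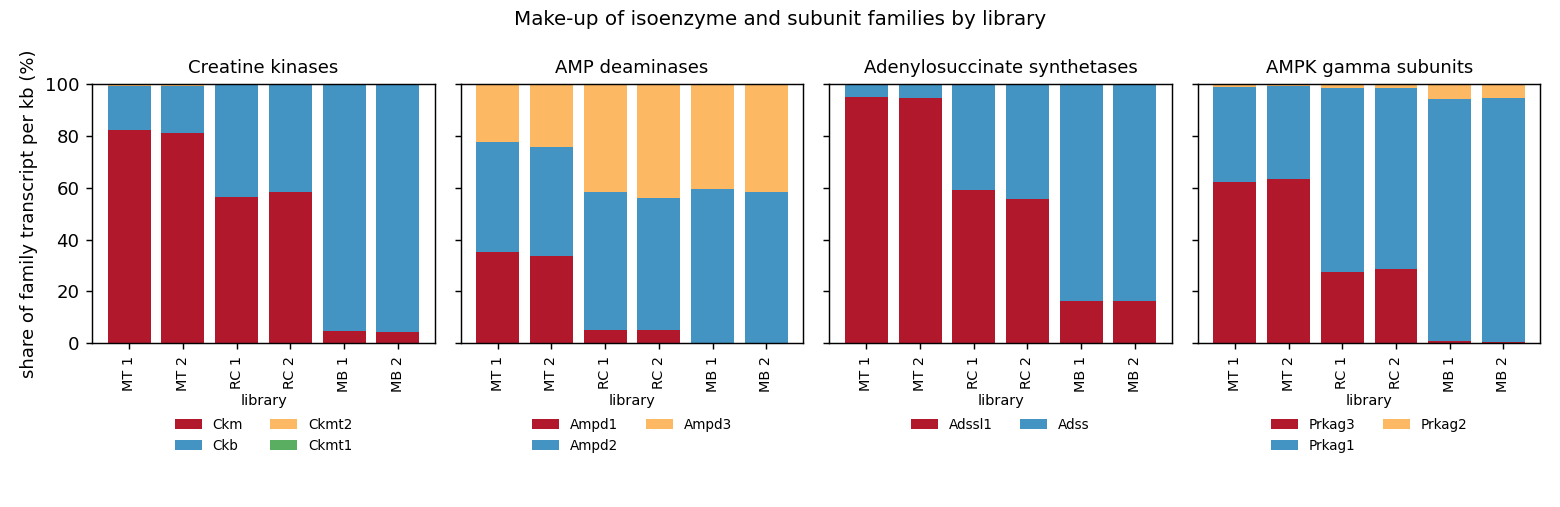
Share of each gene in its family's summed transcript per kilobase, in percent, for 2 libraries each of myotubes (MT), reserve cells (RC) and myoblasts (MB). Ckm, Ampd1, Adssl1 and Prkag3 take their largest shares in myotubes, and Ckb, Adss and Prkag1 hold most of the myoblast pools.

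The antisense gene A930016O22Rik overlaps Ckm on the other strand. It had 463 and 338 counts in myotubes, 83 and 86 in reserve cells, and 2 in each myoblast library. It was thus highest where Ckm was highest. The sources used here do not say whether the libraries kept strand, so reads of the pair cannot be assigned with certainty, but these counts are few beside the 19933 and 23501 of Ckm in myotubes.

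Slc6a8, the gene of the plasma membrane creatine transporter, was higher in both differentiated groups than in myoblasts. It lies on the X chromosome, from 73673150 to 73682502 on the plus strand. Its level was 153.9 and 163.5 in myotubes, 191.4 and 171.8 in reserve cells, and 101 and 97.7 CPM in myoblasts. Unlike the creatine kinases, its highest libraries were those of reserve cells. The log2 fold change was 0.68 for myotubes over myoblasts (SE 0.0681, adjusted p = 3.41e-05) and 0.87 for reserve cells over myoblasts (adjusted p = 1.66e-05). Between myotubes and reserve cells it was −0.19 (95% interval −0.35 to −0.04, adjusted p = 0.0375). This last call did not hold with DESeq2 (adjusted p = 0.0957) or with size factors by relative log expression (adjusted p = 0.0869). It was also lost without myotube library 1 (0.172), without reserve cell library 1 (0.239) and without myoblast library 1 (0.0532), each an adjusted p.

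Creatine itself is made by the enzymes of Gatm and Gamt, and the pair moved apart in myotubes. Gatm, the amidinotransferase of the opening step, was at 85.7 and 83.6 in myotubes, 65.4 and 67.7 in reserve cells, and 137 and 129.8 CPM in myoblasts. It was lower in myotubes than in myoblasts (log2 fold change −0.66, adjusted p = 3.56e-05) and in reserve cells, where it stood at 0.4985 of the myoblast level (adjusted p = 6.31e-06). Gamt, the methyltransferase of the closing step, was at 56.3 and 48.9 in myotubes, 27.4 and 27.5 in reserve cells, and 30.9 and 25.9 CPM in myoblasts. It was higher in myotubes than in myoblasts (log2 fold change 0.89, adjusted p = 0.00011) and than in reserve cells (0.94, adjusted p = 0.000119). Gatm was also higher in myotubes than in reserve cells (0.35, adjusted p = 0.00242), a call that library totals removed (adjusted p = 0.107).

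Ak1, the cytosolic adenylate kinase abundant in muscle, was higher in myotubes than in either other group. It lies on chromosome 2, from 32621758 to 32635058 on the plus strand. Its level was 453.2 and 441.5 in myotubes, 156 and 141.6 in reserve cells, and 98.2 and 97.1 CPM in myoblasts. The groups did not overlap. The change was 4.58-fold in myotubes over myoblasts, or 2.20 on the log2 scale (SE 0.0577, adjusted p = 8.69e-09). It was 0.61 for reserve cells over myoblasts (adjusted p = 4.67e-05) and 1.59 for myotubes over reserve cells (adjusted p = 1.32e-07), both on the log2 scale. In reserve cells Ak1 stood at 33.3% of its myotube level.

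Which Ak1 transcript carried the counts differed between libraries of the same group. Ak1-201 took 62.7% and 54.5% of Ak1 counts in myotubes, 68.3% and 24.98% in reserve cells, and 36.3% and 35.3% in myoblasts. Ak1-202, which starts 5′ of it, took 21.7% and 37.4% in myotubes, 22.2% and 73.1% in reserve cells, and 60.2% and 62.4% in myoblasts. The gap between the reserve cell libraries was wider than any gap between group means, so no change of start site can be read from them. In the fit of 35501 transcripts, Ak1-201 was called between myotubes and myoblasts (log2 fold change 2.88, adjusted p = 0.0305), and no Ak1 transcript was called in the other comparisons.

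Of the 8 other adenylate kinases, 6 could be tested. In myotubes over myoblasts 3 were higher, 2 were lower and 1 was not called. Ak4, a mitochondrial member, was at 4.34 and 3.55 in myotubes, 18.0 and 14.5 in reserve cells, and 8.17 and 7.29 CPM in myoblasts. It was thus lower in myotubes than in myoblasts (log2 fold change −0.97, adjusted p = 0.00361) and higher in reserve cells than in myoblasts (1.07, adjusted p = 0.00249), and it was lower in myotubes than in reserve cells (−2.04, adjusted p = 6.17e-05).

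Ak6 fell by 0.50 in reserve cells against myoblasts on the log2 scale (adjusted p = 0.0021). Ak3, of the mitochondrial matrix, was 0.47 higher on the log2 scale in myotubes than in reserve cells (adjusted p = 0.000192), as was Ak6 by 0.33 (adjusted p = 0.0139), a call lost with library totals (adjusted p = 0.286). Ak5 was called higher in both differentiated groups than in myoblasts, on 37 and 29 counts in myotubes, 82 and 60 in reserve cells, and 4 and 0 in myoblasts. Ak8 was called in myotubes on 11 and 17 counts, against 0 and 3 in myoblasts, and lost the call when either myotube library or myoblast library 1 was left out (adjusted p = 0.0641 to 0.128). Ak7 and Ak9 had too few counts to test, with at most 6 in a library. Per kilobase, Ak1 held 60.8% and 62.7% of the adenylate kinase pool in myotubes, 40.7% and 38.5% in reserve cells, and 23.5% and 23.8% in myoblasts.

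The AMP deaminases split by isoform. Ampd1, the skeletal muscle form, on the plus strand of chromosome 3 from 103074014 to 103099720, was detected in differentiated cultures only. It had 362 and 420 counts in myotubes, 58 and 59 in reserve cells, and 0 in both myoblast libraries. This was 25.7 and 24.4 CPM in myotubes, against 2.93 and 3.06 in reserve cells. Against the limit of 3 counts over the myoblast group, Ampd1 was at least 324-fold higher in myotubes and at least 38.7-fold higher in reserve cells. The edgeR tests, again of no change, gave adjusted p = 2.42e-07 and 1.16e-05. Ampd1 was 8.37-fold higher in myotubes than in reserve cells, or 3.07 on the log2 scale (SE 0.197, adjusted p = 9.89e-06). At 11.9% of the myotube level, Ampd1 had the lowest relative level in reserve cells of the 9 members tested, and lay under all 6 fibre markers. Ckmt2, at a mean of 19.5% of its myotube level, was close to Tnnt3 at 20.4%. The reserve cell libraries of Ckmt2, with 30 and 26 counts, stood at 20.6% and 18.4%, so the order of these 2 genes is not settled.

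Ampd2 and Ampd3, the more widely expressed forms, were highest in myoblasts. Ampd2, on the minus strand of chromosome 3 from 108074062 to 108086651, was at 48.4 and 46.9 in myotubes, 46.9 and 45.3 in reserve cells, and 73.0 and 67.2 CPM in myoblasts. It fell by 0.56 in myotubes (adjusted p = 0.000203) and by 0.60 in reserve cells (adjusted p = 0.000244) on the log2 scale against myoblasts. With its most abundant transcript in place of the gene neither was called (adjusted p = 0.0833 in myotubes and 0.0919 in reserve cells). Myotubes and reserve cells overlapped. Their log2 fold change of 0.05 was not called (95% interval −0.13 to 0.22, adjusted p = 0.632), and with library totals it was −0.16 (adjusted p = 0.107), so its direction depends on the scaling.

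Ampd3, on the plus strand of chromosome 7 from 110768206 to 110812405, had a different order. It was at 28.7 and 30.9 in myotubes, 41.1 and 43.9 in reserve cells, and 56.3 and 54.1 CPM in myoblasts. It fell by 0.89 in myotubes (adjusted p = 1.48e-05) and by 0.38 in reserve cells (adjusted p = 0.00399) against myoblasts on the log2 scale. It was lower in myotubes than in reserve cells by −0.51 on the log2 scale (SE 0.0788, adjusted p = 0.000684). With the most abundant transcript in place of the gene this was −0.12 and was not called (adjusted p = 0.872), and neither change against myoblasts was called (adjusted p = 0.146 in myotubes and 0.29 in reserve cells). Rnf141 overlaps Ampd3 on the other strand and had 355 and 388 counts in myotubes, 698 and 740 in reserve cells, and 704 and 924 in myoblasts. Its part in the Ampd3 counts was not tested.

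The summed AMP deaminase level per kilobase was lowest in reserve cells, and its make-up differed between the groups. It was 31.2 and 30.8 CPM per kilobase in myotubes, 24.1 and 24.4 in reserve cells, and 33.7 and 31.6 in myoblasts. Ampd1 held 35.2% and 33.8% of it in myotubes, 5.17% and 5.34% in reserve cells, and none of the counts in myoblasts. Ampd2 held 42.4% and 41.7% in myotubes, 53.2% and 50.8% in reserve cells, and 59.3% and 58.2% in myoblasts. No test was run on these sums.

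The transcripts to which Ampd1 counts were assigned also differed. Ampd1-201, the model of 2342 bases, took 91.7% of Ampd1 counts in both myotube libraries, and 17.2% and 20.3% in reserve cells. Ampd1-202, of 2913 bases with nearly the same ends, took 4.42% and 3.57% in myotubes, and 70.7% and 69.5% in reserve cells. In counts, Ampd1-202 had 16 and 15 in myotubes, against 41 and 41 in reserve cells, while Ampd1-201 had 332 and 385 in myotubes, against 10 and 12 in reserve cells. The libraries of a group were alike in this. In the fit over all transcripts, chosen for these models after seeing the data, Ampd1-201 was higher in myotubes than in reserve cells (log2 fold change 5.34, adjusted p = 0.00834), and Ampd1-202 was not called (−1.05, adjusted p = 0.315). The difference between these changes was not tested.

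**Figure D3:**
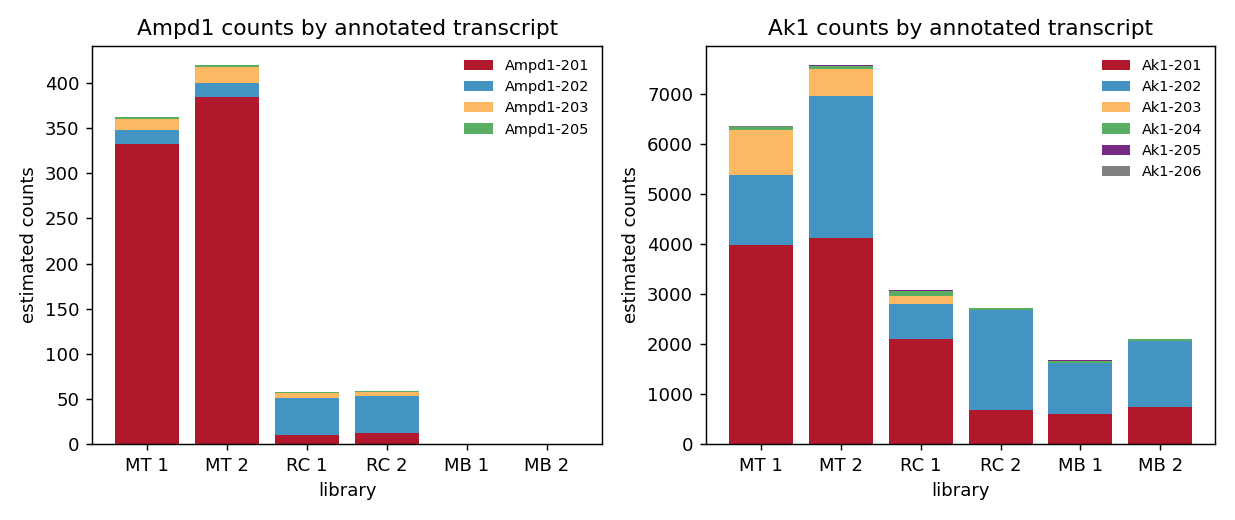
Estimated counts of Ampd1 and Ak1 by annotated transcript in 2 libraries each of myotubes (MT), reserve cells (RC) and myoblasts (MB), with a bar per library. Ampd1-201 makes up most of the myotube bars and Ampd1-202 most of the reserve cell bars, alike in both libraries, whereas the Ak1 transcripts split differently in the reserve cell libraries.

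The genes that return IMP to AMP or handle purines nearby were measured from a list of 14, of which 12 could be tested. In myotubes over myoblasts 4 were higher, 7 were lower and 1 was not called. In reserve cells over myoblasts 1 was higher and 4 were lower, and in myotubes over reserve cells 4 were higher and 7 were lower. Adssl1, the muscle adenylosuccinate synthetase, rose and Adss, the widely expressed form, fell. Adssl1 was at 243.5 and 243 in myotubes, 62.0 and 55.3 in reserve cells, and 18.9 and 18.5 CPM in myoblasts. Adss was at 20.1 and 22.5 in myotubes, 67.5 and 68.8 in reserve cells, and 148.9 and 148.3 CPM in myoblasts.

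The log2 fold change in myotubes over myoblasts was 3.71 for Adssl1 (adjusted p = 2.99e-09) and −2.80 for Adss (adjusted p = 1.49e-08), and reserve cells lay between, at 1.65 and −1.12 over myoblasts. Per kilobase, Adssl1 held 95.0% and 94.4% of the pair in myotubes, 58.9% and 55.6% in reserve cells, and 16.5% and 16.2% in myoblasts. Here the widely expressed form fell, whereas Ckb did not.

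Impdh1, an IMP dehydrogenase of guanine nucleotide synthesis, was higher in myotubes than in myoblasts (log2 fold change 1.09, adjusted p = 3.5e-06) and was not called in reserve cells (0.08, adjusted p = 0.459). The nucleoside enzymes Pnp and Ada were lower in myotubes than in myoblasts, each with a log2 fold change of −2.34 (adjusted p = 4.5e-06 and 0.00112). Pnp was at 7.96 and 9.31 in myotubes, 40.1 and 30.5 in reserve cells, and 39.6 and 48.3 CPM in myoblasts. Nt5e, the ecto-nucleotidase that makes adenosine from AMP, was lower in myotubes than in reserve cells (−2.68, adjusted p = 0.000766). Aprt, which salvages adenine, fell by 0.99 in reserve cells against myoblasts on the log2 scale (adjusted p = 4.1e-05). The nucleotidases Nt5c1a and Nt5c1b had at most 2 counts in a library and were not tested.

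AMP-activated protein kinase senses AMP through its gamma subunit. All 7 subunit genes were tested, and in myotubes over myoblasts 3 were higher, 3 were lower and 1 was not called. Prkag3, the gamma subunit largely restricted to skeletal muscle, was at 362.4 and 378.5 in myotubes, 73.8 and 74.1 in reserve cells, and 1.98 and 1.38 CPM in myoblasts. Its log2 fold change was 7.80 for myotubes over myoblasts (adjusted p = 3.38e-10), 5.48 for reserve cells over myoblasts (adjusted p = 6.4e-09) and 2.32 for myotubes over reserve cells (adjusted p = 8.9e-08). Prkaa2, a catalytic alpha subunit, was higher in myotubes than in myoblasts by 4.55 on the log2 scale (adjusted p = 5.71e-07), and in reserve cells by 2.73 (adjusted p = 3.73e-05).

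Prkag1 was not called in myotubes over myoblasts (log2 fold change −0.08, adjusted p = 0.265). Prkag2 fell by 0.94 in myotubes and by 1.66 in reserve cells against myoblasts on the log2 scale (adjusted p = 0.00134 and 0.000105), and Prkaa1 fell by 0.35 and by 0.52 (adjusted p = 0.000857 and 0.000147). Between myotubes and reserve cells 6 of the 7 were called higher in myotubes, against 27.2% of all genes. Of the 6, Prkaa1 (0.17) and Prkag1 (0.19) turned to −0.03 and −0.01 with library totals. Both also lost the call in edgeR without the filter (adjusted p = 0.0866 and 0.0555). Prkag3 held 62.0% and 63.5% of the gamma subunit transcript per kilobase in myotubes, 27.3% and 28.6% in reserve cells, and 0.835% and 0.569% in myoblasts.

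ATP and ADP cross the inner mitochondrial membrane through adenine nucleotide carriers and the outer membrane through voltage-dependent anion channels. Of 7 such genes 6 were tested, and 5 were called higher in myotubes than in myoblasts, by small amounts, against 32.7% of all genes. The largest were Vdac1 (log2 fold change 0.43, adjusted p = 3.14e-05) and Vdac3 (0.36, adjusted p = 0.00379). With library totals the calls of Slc25a4, Vdac2 and Vdac3 were lost and Slc25a3 was −0.07 in place of 0.21, so this direction depends on the scaling. In reserve cells over myoblasts 4 were lower, against 21.8% of all genes, led by the phosphate carrier Slc25a3 (log2 fold change −0.33, adjusted p = 0.000152) and Vdac1 (−0.27, adjusted p = 0.00115). In myotubes over reserve cells 5 were higher, against 27.2% of all genes, led by Vdac1 (0.69, adjusted p = 2.79e-06) and Slc25a3 (0.54, adjusted p = 5.81e-06). Slc25a31, the testis carrier, had no counts.

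Mb, the gene of myoglobin, showed the largest fold change among the members with counts in every library. It lies on chromosome 15, from 77015487 to 77050670 on the minus strand. Its level was 998.7 and 961.6 in myotubes, 275 and 247.8 in reserve cells, and 1.58 and 1.71 CPM in myoblasts, where it rested on 27 and 37 counts. The groups did not overlap. Mb was 592-fold higher in myotubes than in myoblasts, or 9.21 on the log2 scale (SE 0.0891, adjusted p = 4.38e-11). It was 158-fold higher in reserve cells than in myoblasts (7.30 on the log2 scale, adjusted p = 3.39e-10) and 3.75-fold higher in myotubes than in reserve cells (1.91 on the log2 scale, adjusted p = 4.99e-08). In reserve cells it stood at 26.7% of its myotube level, within the range of the fibre markers.

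Per kilobase, Mb had the highest level of the members in myotubes, 887.8 ± 23.8 CPM per kilobase, against 507.7 ± 13 for Ckm and 219.9 ± 4.07 for Ak1 (SD, n = 2 each). In reserve cells it was again the highest, at 236.8 ± 17.4. Without division by length, Ckm was above Mb, with means of 1392 against 980.1 CPM in myotubes and 286.6 against 261.4 CPM in reserve cells. The order of Mb and Ckm thus rests on the lengths used, 1104 and 2742 bases. In myoblasts Mb was the lowest of the members with counts there, at 1.49 ± 0.0837, next to Ckm at 2.56 ± 0.265. There Ckb led with 54.8 ± 1.88 and Ak1 followed with 48.0 ± 0.361.

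Mb-203 took 81.5% to 100% of Mb counts in a library. The antisense gene Gm49540 overlaps Mb and had 902 and 1197 counts in myotubes, 295 and 294 in reserve cells, and 1 in each myoblast library, against 14045 and 16532 counts of Mb in myotubes. With strand unknown, the pair cannot be fully told apart.

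Myoglobin needs heme, and 8 of 9 heme synthesis genes could be tested. In myotubes over myoblasts 4 were higher, 2 were lower and 2 were not called. Alas1, the rate-limiting synthase outside red cells, was at 52.6 and 60.2 in myotubes, 46.0 and 44.1 in reserve cells, and 29.5 and 29.1 CPM in myoblasts. It was higher in myotubes than in myoblasts (log2 fold change 0.95, adjusted p = 1.65e-05) and in reserve cells than in myoblasts (0.62, adjusted p = 0.000459). Uros, of the same pathway, was 2.83-fold higher in myotubes than in myoblasts (adjusted p = 3.3e-05) and 0.88 higher on the log2 scale than in reserve cells (adjusted p = 0.00102), while Cpox was lower in myotubes than in reserve cells (−0.56, adjusted p = 0.00131). Alad, of an early cytosolic step, fell by 0.77 in myotubes and by 0.58 in reserve cells against myoblasts on the log2 scale (adjusted p = 0.000164 and 0.00142). The erythroid synthase Alas2 had at most 4 counts in a library. The other globins were hardly detected, with cytoglobin (Cygb) under 1 CPM throughout and at most 2 counts of neuroglobin (Ngb), and neither was tested.

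**Figure D4:**
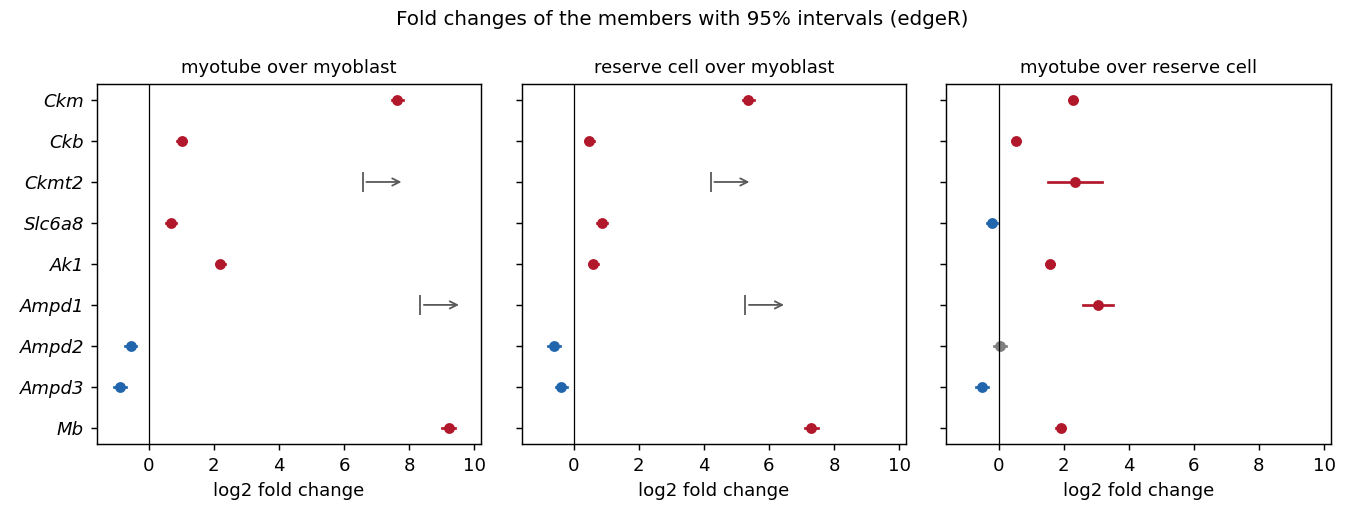
Log2 fold change with its 95% interval (edgeR) for the 9 members tested, in myotube over myoblast, reserve cell over myoblast and myotube over reserve cell, where red is higher, blue is lower and grey is not called at an adjusted p of 0.05. Arrows start at the lower bound for Ckmt2 and Ampd1, whose myoblast libraries had 0 counts, and Ampd2 lies at 0.05 between myotubes and reserve cells.

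**Figure D5:**
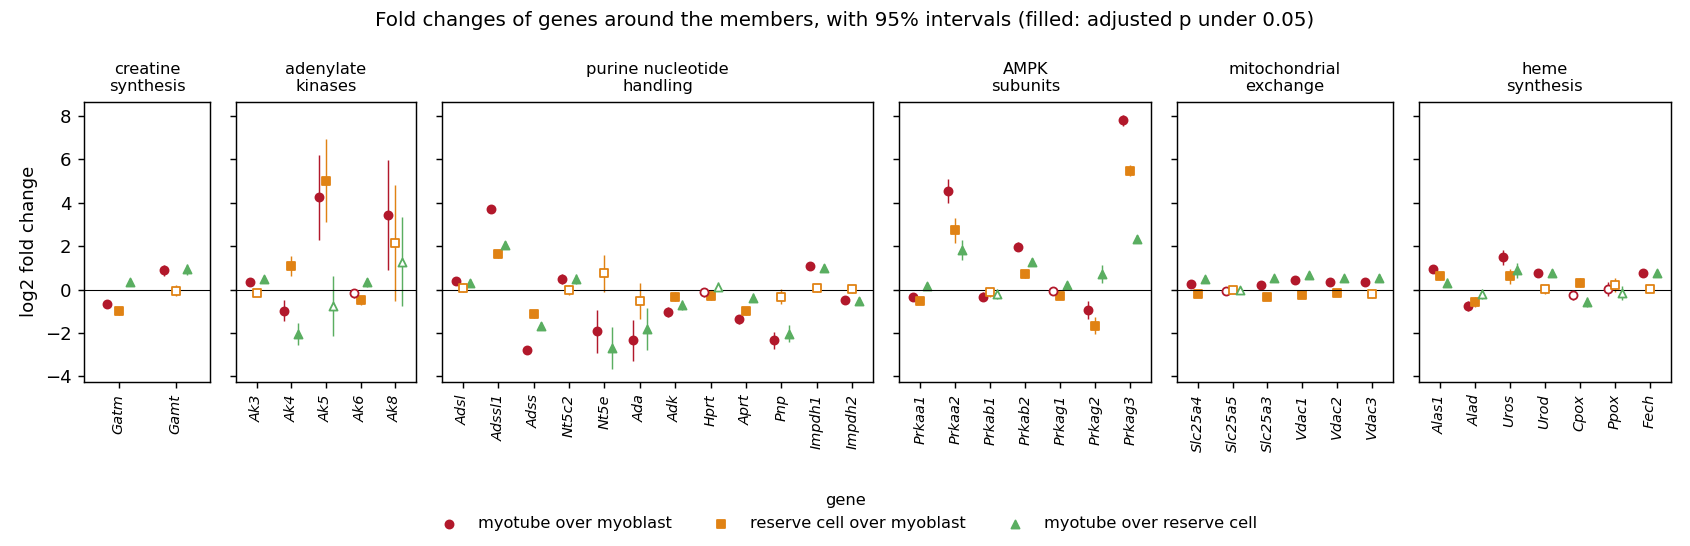
Log2 fold change with its 95% interval for 39 of the 41 tested genes of the surrounding pathways in the 3 comparisons, filled where the adjusted p was under 0.05 and open where it was not. Prkag3 (7.80) and Prkaa2 (4.55) lie highest and Adss (−2.80) lowest of the plotted genes in myotubes over myoblasts, and the mitochondrial exchange genes stay close to 0.

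Over the 49 genes of these lists, 41 were tested. In myotubes over myoblasts 20 were higher and 15 were lower, in reserve cells over myoblasts 9 were higher and 16 were lower, and in myotubes over reserve cells 23 were higher and 9 were lower. Read against the 65.3%, 46.2% and 55.7% called among all genes, 35, 25 and 32 of the 41 were called, and their median log2 fold changes were 0.05, −0.12 and 0.33.

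The genes whose profile over the 6 libraries lay nearest to that of Ckm were Myl1, Mylpf and Tnni2, at distances of 0.218, 0.234 and 0.255. The distance is Euclidean, on log2(CPM + 1) centred per gene, over 10507 genes with at least 10 CPM in a group. Myl1 was at 4239 and 4003 in myotubes, 768.9 and 781.3 in reserve cells, and 21.01 and 21.7 CPM in myoblasts. These 3 encode fast myosin light chains and a fast troponin. Nearest to Mb were Trim72, a membrane repair gene, at 0.219, and then Myl4 and Pgm5 at 0.606 and 0.607. Their correlations with Mb on the same values were alike, at 0.9997, 0.9997 and 0.9988. Nearest to Ckb were Spop, Bpgm and Wipi1, at 0.0537, 0.0674 and 0.0726, and none of them is a muscle structural gene.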

How the data were processed

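The 6 poly(A) libraries, 2 each of myotubes, reserve cells and myoblasts, were analysed. Per the labels and methods, the authors aligned paired reads of 150 bases to mm10 with HISAT2, handled alignments with SAMtools, and deposited estimated counts (expected counts, whole numbers) per transcript from StringTie. The sources used here do not give their versions, the annotation release or strand. The series table named normalized was not used. Transcript counts were summed to gene symbols through GENCODE M21. Of 142604 transcripts 141374 were paired. The unpaired ones, 0.375% to 0.872% of a library's counts, were kept as entries of their own under their transcript identifiers. They are part of the library totals, and those with counts are among the 25269 genes and can be among the 15454 tested. Library totals bound the precision, and limits from 0 counts cover counting error only.

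Tests used edgeR 4.0.16 (R 4.3.3) with filterByExpr (minimum count 10), TMM factors and quasi-likelihood F tests on all libraries. Alternatives were DESeq2 1.42.0, the study's tool, other size factors, filters, subsets of libraries, a replicate block and transcripts. Members and lists were chosen with earlier results of these data known. Partner genes were named by rule, at most 2 rising and 2 falling with the largest called changes per list and comparison, and those not testable, while a few more were chosen after their values were seen. Some genes of these lists are counted but not reported by name. Replicates differed by more than sampling noise (chi-square per degree of freedom 6.15 to 7.76). Families for shares, other than the creatine kinases, were also chosen after their values were seen. For Ckm, Ckb and Mb the 3 genes nearest in profile were also named. Figures were drawn with Python 3.11.15 and matplotlib 3.10.9.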

Additional observations from a re-analysis of the deposited data

How the results depend on the processing

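Over 348 recomputed gene-level log2 fold changes of the members, 342 kept their direction and their side of the threshold. Of the others, 5 were losses of the call for Slc6a8 between myotubes and reserve cells and 1 was Ampd2 in the same comparison, which was −0.16 with library totals. A filter at 10 CPM left Ckmt2 untested. With the most abundant transcript in place of the gene, 7 members were called in myotubes over myoblasts and 6 in reserve cells over myoblasts, against 9 by gene in each, and 4 in myotubes over reserve cells, against 8 by gene. The losses were Ampd2 (adjusted p = 0.0833 and 0.0919 over myoblasts), Ampd3 (0.146 and 0.29 over myoblasts, 0.872 over reserve cells), Ak1 (0.391 in reserve cells over myoblasts, 0.115 in myotubes over reserve cells), and, in myotubes over reserve cells, Ckmt2 (0.0658) and Slc6a8 (0.0851). Of all 35501 transcripts, 7173 were called in myotubes over myoblasts, 2621 in reserve cells over myoblasts and 3799 in myotubes over reserve cells. By gene, these calls were 10099, 7141 and 8602 of 15454, or 65.3%, 46.2% and 55.7%. The share of features called was thus also lower by transcript. The cause of the lost calls was not tested. The transcript Ampd1-202 alone gave −1.05 in myotubes over reserve cells, against 3.07 for the gene. With library totals, 36.6% of calls were higher in myotubes over myoblasts and 34.1% in myotubes over reserve cells, against 50% and 48.9% with TMM.

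Without division by length, the shares of creatine kinase counts in the order myotube, reserve cell and myoblast were 89.07%, 71.55% and 7.99% for Ckm, and 10.45%, 28.1% and 92.01% for Ckb. By coding length, Ckm held 89.11%, 71.57% and 7.99%, and Ckb 10.46%, 28.11% and 92.01%. By mean transcript length weighted by counts, the Ckm shares were 81.78%, 58.07% and 4.565%. Leaving out each library in turn, 9 members were called in both comparisons with myoblasts and 7 to 8 between myotubes and reserve cells.

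The labels do not say whether the replicate numbers pair the libraries. Deviations of same-numbered libraries correlated at −0.037 to 0.0576. This cannot show whether they shared a culture, and each comparison has only 2 pairs. With the replicate number as a block, 9, 9 and 8 members and 9926, 6958 and 8383 genes were called in the 3 comparisons, and no member's call changed. Depth limits Ckmt1, with 2 counts in all, and Ckmt2, with 286.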

Other observations

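Counts of some transcript models differed widely between libraries of a group. The Ampd3 model from 110768911 to 110811919 on chromosome 7 had 356 counts, or 43.7% of Ampd3, in reserve cell library 1 and 0 in the other 5 libraries. Mb-202, whose start lies upstream of the other Mb models, had 403 counts in myotube library 1, 0 in myotube library 2 and 4 in each reserve cell library. Slc6a8-202 had 122 and 0 counts in reserve cells and 196 and 125 in myoblasts, and 0 in both myotube libraries. The gene totals that hold these models differed little between libraries of a group.

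Among the retained-intron models of the members, the Ampd2 model from 108074062 to 108085555 on chromosome 3 had 136 and 22 counts in myotubes, 46 and 56 in reserve cells, and 40 and 108 in myoblasts, with 20% of Ampd2 counts in myotube library 1 as its highest share. Ckb-204 held 0.888% and 6.43% of Ckb in myotubes, 1.43% and 2.27% in reserve cells, and 1.55% and 1.99% in myoblasts. Slc6a8-212 held 3.88% and 4.16% of Slc6a8 in myotubes, 1.34% and 1.90% in reserve cells, and 0.867% and 0.614% in myoblasts, with no overlap of the groups. In the fit of transcripts it was called in myotubes over myoblasts (log2 fold change 3.08, adjusted p = 0.0135 from edgeR) and not in reserve cells over myoblasts (1.94, adjusted p = 0.0791). The difference between these changes, the comparison of myotubes over reserve cells, was 1.14 and was not called (adjusted p = 0.189).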
